A study of Mus musculus with 4 samples.

Results

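The genes examined here were Pitx1, Six2, Six4, Eya1, Dlx3, Dlx5, Pax9 and Barx2, 8 transcriptional regulators of oral ectoderm and pharyngeal development. They were chosen by name from a list, with earlier results of these data known. All 8 were found among the 21440 protein-coding genes that could be placed with a strand, and 33 of the 32011 distinct open regions in the deposited list were at the 5′ end, inside, or nearest to the 5′ end of 1 of them. The regions came from bulk ATAC-seq, in which the Tn5 transposase cuts accessible chromatin. It was made on non-irradiated organoids (mSGOs) grown from the submandibular salivary gland of female C57BL/6 mice. The study describes these organoids as the younger of the culture stages it profiled. The 4 samples were organoids of passage 1 and of passage 2, each labelled with an age of 12 weeks in 1 sample and of 3 months in the other, and the study's methods give a different mouse for each of the 4. All were grown in Matrigel with EGF, FGF2, N2, insulin, dexamethasone, the ROCK inhibitor Y27632, and media conditioned with R-spondin1 and Wnt3a, so that no sample lacked a Wnt stimulus. The authors deposited 1 list of regions for all samples together, without values by sample. Passages therefore could not be compared, nor could the age labels, which name nearly the same age. The spread between mice and the sequencing depth are unknown, and no test was made. In such a bulk list, a site open in few cells cannot be told apart from a site weakly open in many.

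The submandibular gland begins as a thickening of the oral epithelium that buds and branches into the underlying mesenchyme. Pitx factors are among the early homeodomain factors of the oral ectoderm. Six2 and Six4 encode homeodomain factors of the sine oculis type, which recruit EYA proteins such as that of Eya1, and EYA proteins act as coactivators and phosphatases. Dlx genes lie in the genome as neighbouring pairs and pattern the pharyngeal arches and ectodermal appendages. Pax9, a paired-box factor, is needed for teeth and for derivatives of the pharyngeal pouches, and Barx2 is a homeobox factor of branching epithelia such as the lacrimal and salivary glands.

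Each region carries a fold of signal over the local background at its strongest summit, an IDR score, which rises to 1000 for the peaks ranked most reproducibly and has a minimum of 540 here, and the −log10 of a q-value. Over all regions, the median fold was 7.11 (quartiles 5.70 and 9.32). Coordinates were read as GRCm38. Of the coding 5′ ends in the GRCm38.p6 table, 38.3% had the midpoint of a region within 1 kb, against 3.35% to 3.97% with these ends shifted by 5 to 100 kb, and against 5.03% of coding 5′ ends in GRCm39, although the submitters' processing notes list GRCm39 without saying for what. Of 8 epithelial and duct markers, 6 were open at the 5′ end (Epcam, Cdh1, Krt5, Krt14, Krt8 and Sox9), while no region was listed there for Krt18 and Trp63. The defining acinar genes Aqp5, Prol1 and Bhlha15 had none (0 of 3), nor had the immune (0 of 3), endothelial (0 of 3) and fibroblast (0 of 3) markers. The endothelial loci were not without regions, since Pecam1 had 3 inside the gene, the closest 1.43 kb from its 5′ end (fold 9.46), and Cdh5 had 7 nearest regions. Nor was the Trp63 locus, with 7 regions inside the gene and 10 nearest to its 5′ end. Krt18 had 1 nearest region, 11.3 kb upstream.

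The RefSeq promoter table (GRCm38.p6) holds start sites of Six2, Six4 and Pax9 among the 8 genes, and a region of the list covered a start of each. The 250 bases before these starts are shown, with capitals for bases inside the open region. For Six4, the table gives a pair of starts, and the more upstream is used. The windows are chr17:85688255-85688504 for Six2 (minus strand), chr12:73113426-73113675 for Six4 (minus strand) and chr12:56695221-56695470 for Pax9 (plus strand), each read 5′ to 3′.
Six2: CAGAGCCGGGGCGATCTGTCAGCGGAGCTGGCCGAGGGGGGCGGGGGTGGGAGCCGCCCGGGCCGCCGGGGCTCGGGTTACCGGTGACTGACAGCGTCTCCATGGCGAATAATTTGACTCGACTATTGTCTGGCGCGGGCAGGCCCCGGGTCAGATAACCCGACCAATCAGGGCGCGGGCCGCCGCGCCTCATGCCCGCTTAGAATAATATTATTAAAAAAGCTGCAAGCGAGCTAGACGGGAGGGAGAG
Six4: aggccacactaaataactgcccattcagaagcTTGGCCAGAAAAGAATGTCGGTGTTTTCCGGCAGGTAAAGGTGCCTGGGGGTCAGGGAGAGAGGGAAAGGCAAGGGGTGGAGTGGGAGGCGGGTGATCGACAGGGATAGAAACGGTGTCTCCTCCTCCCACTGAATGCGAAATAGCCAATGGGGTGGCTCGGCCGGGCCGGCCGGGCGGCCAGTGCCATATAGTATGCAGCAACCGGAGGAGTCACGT
Pax9: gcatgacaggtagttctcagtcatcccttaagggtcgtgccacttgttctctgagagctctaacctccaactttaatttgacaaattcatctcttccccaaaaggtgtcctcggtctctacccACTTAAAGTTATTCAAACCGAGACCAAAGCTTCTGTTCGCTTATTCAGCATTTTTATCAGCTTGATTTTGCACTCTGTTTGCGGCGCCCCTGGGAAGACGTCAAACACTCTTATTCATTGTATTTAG
All 250 bases lay in the open region at Six2, 218 at Six4 and 127 at Pax9, where the region went on into the gene. The Six2 window held 26 CG dinucleotides and the Six4 window 13, whereas the Pax9 window held 7, beside a median of 6 (quartiles 2 and 16) in 32851 windows of this length. G and C made up 64.8%, 58.8% and 43.6% of the bases, in the same order. Of the motifs searched on both strands, the GC box GGGCGG occurred at 2 places in the Six2 window and at 1 in the Six4 window, and CCAAT occurred once in each. These 2 motifs occurred in 32.7% and 33.8% of all windows, respectively. TAATCC, a bicoid-type site of PITX factors (6.25% of windows), TAATTA, a homeodomain site (4.84%), TCAGGTT, a core bound by sine oculis factors (3.49%), the AP-1 site TGAGTCA (4.46%) and TATAAA (12.4%) did not occur in the 3 windows. In the window before the other Six4 start (chr12:73113246-73113495), of which 169 bases lay in the same region, TCAGGTT occurred once, within the open bases, and GGGCGG once.

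At the outermost 5′ end, 3 of the 8 genes had the midpoint of a region within 1 kb, namely Six2, Six4 and Eya1, beside 38.3% of all coding genes. At Six2, the region (chr17:85687977-85688549) had its midpoint 9 bp upstream of the 5′ end, a fold of 4.83 and an IDR score of 717. Its 3 summits had folds of 2.81, 4.83 and 3.67, the strongest of them 105 bp upstream. At Six4, the region (chr12:73113327-73113643) had a fold of 4.95 and an IDR score of 570. Its midpoint was 546 bp downstream of the outermost 5′ end, but its only summit lay 21 bp upstream of the start listed by RefSeq and shown above. At Eya1, the region (chr1:14309965-14310331) lay inside the gene, 887 bp downstream of the 5′ end, with a fold of 6.54 and an IDR score of 812. The folds at Six2 and Six4 were below the lower quartile of regions within 1 kb of a coding 5′ end (6.05) and that of Eya1 was below their median (7.90). Within 500 bp of the 5′ end, only Six2 had a region. A stricter set, the 16006 regions with the lowest q-values among all 32011, kept 0 of these 3 regions.

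Pax9 differed from these genes in that its open start lay over 1 kb from its outermost 5′ end. The listed starts of Six4 were also inside its outermost 5′ end, but by 606 and 786 bp. No region lay within 1 kb of the outermost 5′ end of Pax9, which belongs to the most upstream RefSeq model. The start site in the promoter table is 3778 bp further into the gene, and a region (chr12:56695344-56695998) covered it. That region had a fold of 13.6, an IDR score of 1000 and a −log10 q-value of 117.6. Its strongest summit lay 138 bp downstream of the start. Its fold stood at percentile 94.8 of all regions, while those of the Six2 and Six4 regions stood at 9.41 and 11.5. With the outermost 5′ end or any listed start counted, 4 of the 8 genes had an open start. Eya1, which has no listed start, was among them by its outermost 5′ end. No share of all coding genes was taken under this joint rule, so the count of 4 has no background beside it. All 3 members in the promoter table had an open start, beside 43.0% of coding genes in that table. The 5′ end of Gm15524, a gene of another type, lay 904 bp from the midpoint of the Pax9 region, outside its limits.

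Inside the genes, no member had more than 1 region. Of the 8 genes, 5 held the midpoint of a region, with 1 region in each, beside 39.4% of all coding genes. They were the regions of Six4, Eya1 and Pax9 given above, 1 near the distal end of Six2 (chr17:85665017-85665243, fold 7.36), 23.1 kb from its 5′ end, and 1 in Barx2 (chr9:31856424-31856841, fold 7.44), 56.7 kb from its 5′ end. Pitx1, Dlx3 and Dlx5, which span 11.1, 5.18 and 4.27 kb, had 0 regions inside. The gene table gives gene limits without exons, so exons and introns were not told apart.

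**Figure D1:**
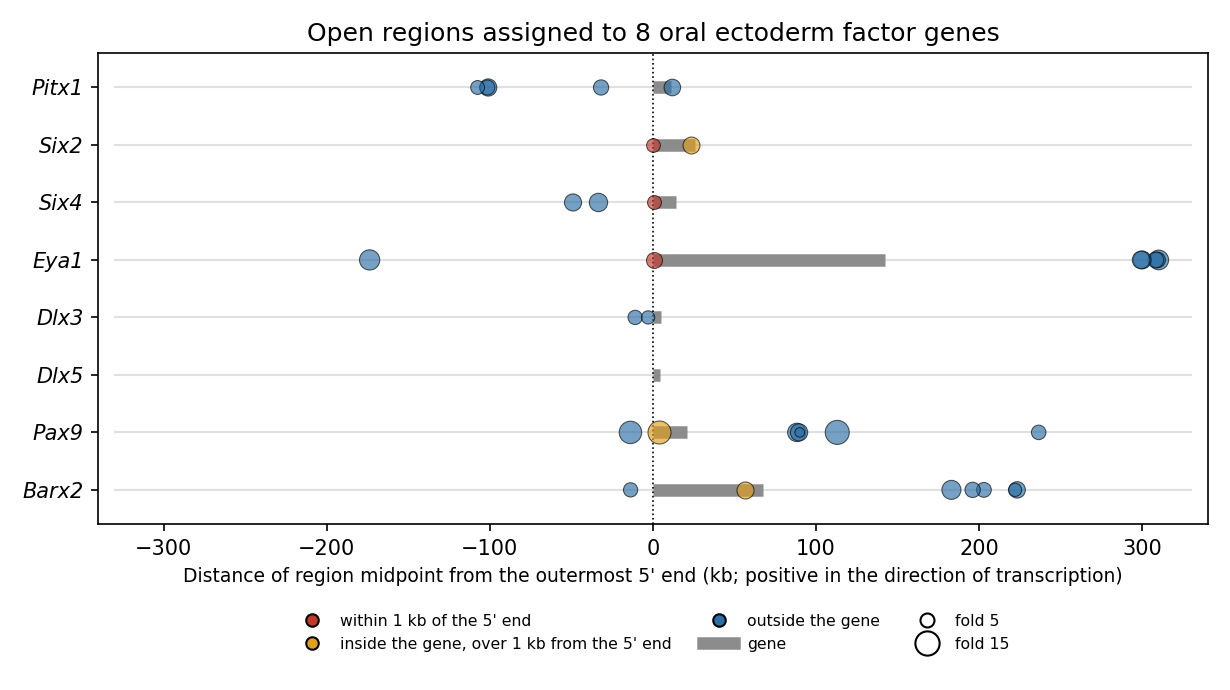
Position of the 33 regions relative to the outermost 5′ end of each gene (x axis, kb, positive in the direction of transcription; 1 row per gene, gene body in grey). Circle area follows the fold over local background, and colour gives the place of the region. Regions of Eya1, Pax9 and Barx2 reach 310.1, 236.5 and 223.3 kb downstream, whereas Dlx5 has none.

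Most regions of these genes were far from the 5′ end. Of the 33, 30 lay over 1 kb from it, 11 upstream and 19 downstream, at 2.95 to 310.1 kb. Their median distance was 101.2 kb, and 16 of them were over 100 kb away (53.3%). These 16 all belonged to Eya1, Barx2, Pitx1 and Pax9, and many of them lay close to one another. No region of Six2, Six4 or Dlx3 was that far, so the pooled share does not describe each gene. Among all 23833 regions over 1 kb from every coding 5′ end, the median distance to the nearest coding 5′ end was 36.4 kb and 24.0% were over 100 kb away. These genes also have more room, since 6 of 8 have a longer stretch nearest to their 5′ end than the median coding gene (50.4 kb). At least 1 region over 1 kb away was nearest to 7 of the 8 genes, beside 40.4% of coding genes, and the same 7 genes had any nearest region, beside 58.0%. Of the 33 regions, 21 lay inside no coding gene. The 5′ end of a gene of another type, such as a predicted gene, was nearer than that of the member for 24 of the 33, among them all 7 of Barx2, all 7 of Pax9, 5 of Eya1, 3 of Pitx1 and 2 of Six4, so that 9 remained with genes of every type counted.

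Eya1, the coactivator gene among the 8, had 7 regions in a stretch of 543.7 kb. Besides the region at its 5′ end, 5 were grouped within 11.3 kb beyond its 3′ end (chr1:14000675-14012019), between 157.2 and 168.1 kb past that end. Their folds were 9.95, 6.23, 6.41, 8.21 and 7.97, and their IDR scores were between 923 and 1000. The remaining region (chr1:14484553-14484885), 173.7 kb upstream, had the highest fold of the gene, 10.5. For Eya1, the distant regions thus had folds from 6.23 to 10.5, and 4 of these 6 exceeded that of the region at the 5′ end. The 5 grouped regions were nearer to the 5′ end of Gm39596, a gene of another type. In the stricter set by q-value, 6 of the 7 were kept, without the region at the 5′ end.

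Pax9 had 7 regions, 3 of which had higher folds than any region of the other genes. The highest, 14.8, was that of a region 113.0 kb downstream (chr12:56804435-56804925), with a −log10 q-value of 107.6. A region 13.8 kb upstream (chr12:56677634-56678204) had a fold of 12.9 and a −log10 q-value of 84.9. The third was the region at the listed start, with a fold of 13.6. A group of 3 regions within 2.06 kb (chr12:56779658-56781721) had folds of 8.67, 7.66 and 2.37, the last of them the lowest of all 33. This last region was 73 bp wide, with a −log10 q-value of 2.10. Its IDR score was nevertheless 1000, so that a score of 1000 did not require a high fold. It began at 56781649, close to the end of its neighbour at 56781609, and was counted as a separate region. The seventh region, 236.5 kb downstream, had a fold of 5.40. All 5 regions beyond the 3′ end of Pax9 lay inside its neighbour Slc25a21, a mitochondrial carrier gene, although the 5′ end of Pax9 was the nearest among coding genes.

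Barx2 had 7 regions and none at its 5′ end, the closest being 13.7 kb upstream (chr9:31926750-31927170, fold 5.23). For each of the 7, the 5′ end of a gene of another type was nearer than that of Barx2. Besides the region inside the gene, 5 regions lay between 115.8 and 156.1 kb past its 3′ end. The strongest of these (chr9:31729994-31730590) had a fold of 9.32, an IDR score of 1000 and 4 summits. The other 4 had folds of 6.94, 4.48, 5.65 and 6.04. Of the 7 regions, 3 were kept in the stricter set, which holds 16006 of all 32011 regions.

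Pitx1, a homeodomain factor of the oral ectoderm and the hindlimb, had 5 regions, none at the 5′ end or inside the gene. The closest (chr13:55824177-55824463, fold 7.06) lay 0.724 kb past the 3′ end. Upstream, a region of 872 bp with 4 summits was found 31.8 kb away (chr13:55867597-55868468, fold 5.98). A group of 3 regions within 6.92 kb (chr13:55936927-55943850) followed at 101.0 to 107.5 kb, with folds of 7.60, 5.72 and 4.94. The first ended at 55937431, close to the start of the next at 55937472, and they were counted as separate regions. The folds of Pitx1 therefore stayed between 4.94 and 7.60, inside or below the quartiles of all regions.

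**Figure D2:**
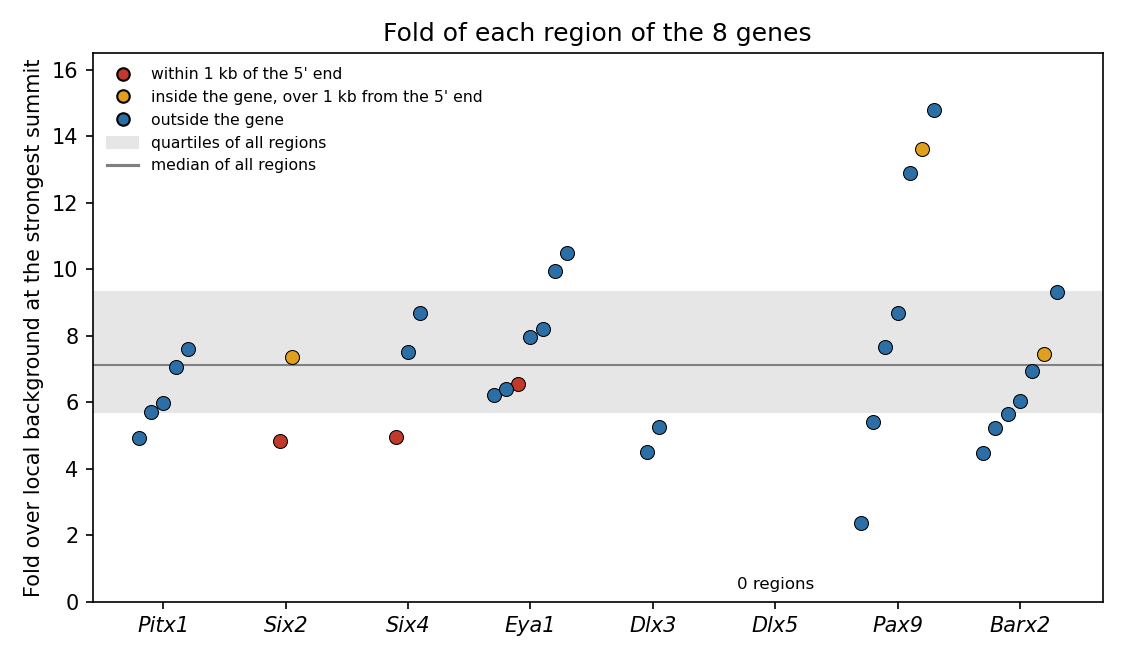
Fold over local background at the strongest summit (y axis, ratio) of every region, by gene (x axis); each point is 1 region, coloured by its place, and the grey band and line give the quartiles (5.70 and 9.32) and the median (7.11) of all regions. The regions at the 5′ ends of Six2 and Six4 lie under the band, while 3 regions of Pax9 and 2 of Eya1 lie above it.

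Dlx3, a homeobox gene of skin, hair and teeth, had 2 regions, both upstream. That at 2.95 kb (chr11:95117057-95117274) had a fold of 4.51 and an IDR score of 630, and that at 10.9 kb (chr11:95109081-95109309) had a fold of 5.26 and an IDR score of 587. Both were narrow, with 218 and 229 bp beside a median of 402 bp over all regions, and neither was kept in the stricter set. Outside the limit of 1 kb, the region at 2.95 kb was the closest of the 8 genes to an outermost 5′ end, followed by that of Pax9 at 3.98 kb, and just inside the limit was that of Eya1 at 887 bp. The neighbouring gene Dlx4 had 0 regions nearest to its 5′ end, and 0 regions lay in the 26.2 kb between the 5′ ends of the pair.

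Dlx5, a homeobox gene of the pharyngeal arches and of bone, had 0 regions by any part of the rule. The closest region lay 51.4 kb away, on the far side of its partner Dlx6, and 0 regions were listed in the 18.7 kb between the 5′ ends of these genes. Dlx6 itself had none at its 5′ end, but 4 regions upstream were nearest to it. The strongest (chr6:6801899-6802298), 61.2 kb from Dlx6, had a fold of 16.4 and a −log10 q-value of 89.9, above every region of the 8 genes in fold. The others had folds of 11.5 at 32.7 kb, 8.03 at 80.9 kb and 7.19 at 84.1 kb. The rule by nearest 5′ end gave these 4 regions to Dlx6 and not to Dlx5, and which gene they act on was not tested. A missing region means that none passed the authors' reproducibility threshold, not that the site is closed.

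Six4 shares its locus with Six6, a gene of the same family. Upstream of Six4, regions lay at 33.4 kb (chr12:73147188-73147582, fold 8.67) and at 49.0 kb (chr12:73162801-73163346, fold 7.52), both inside Mnat1, which encodes an assembly factor of the CDK-activating kinase. Their folds exceeded that of the region at the Six4 start (4.95), whose midpoint also lay inside Mnat1. Six6, which is known from the eye and pituitary, had 1 nearest region, 37.1 kb from its 5′ end, with a fold of 4.74. At the Six2 locus, Six3, a gene of the forebrain and eye, had 0 nearest regions, and the only region between the 5′ ends of the pair, 74.6 kb apart, was the distal one inside Six2. Beside Pax9, Nkx2-9 had 1 nearest region (fold 5.72, 25.6 kb from its 5′ end) and Nkx2-1 had 0, and neither gene had one at the 5′ end.

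**Figure D3:**
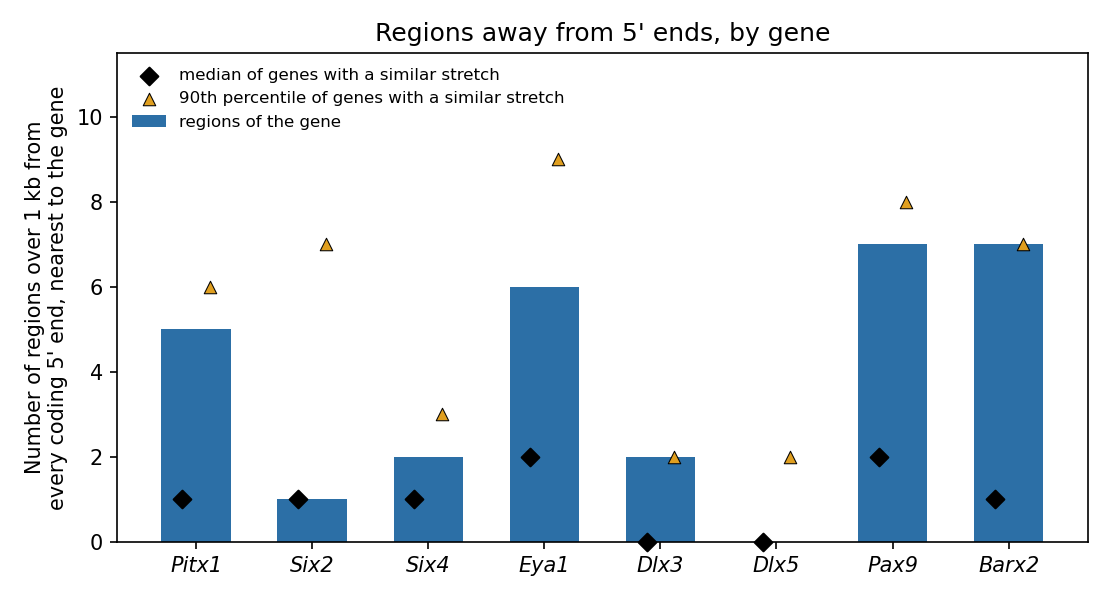
Number of regions over 1 kb from every coding 5′ end and nearest to each gene (bars), with the median (diamonds) and the 90th percentile (triangles) of coding genes that have a similar stretch nearest to their 5′ end. The counts of Barx2 (7) and Dlx3 (2) equal the value marked by the triangle, Pax9 has 7 against 8, and Dlx5 has 0.

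The number of distant regions was set beside genes with a similar stretch nearest to their 5′ end, about 428 genes each. For 6 of the 8 genes it was above the median of such genes. Dlx3 stood highest, at percentile 93.2, with only 2 regions in a stretch of 34.7 kb. Barx2 stood at 88.4, Pax9 at 86.0 and Pitx1 at 85.4, with stretches of 276.2, 292.0 and 175.6 kb. Eya1 (79.6) and Six4 (76.5) followed, whereas Six2 (44.4) and Dlx5 (29.7) stood lower. Without regard to the stretch, Pax9 and Barx2 stood at percentile 97.0 of all coding genes. Over the 33 regions, the median fold was 6.94 (quartiles 5.40 and 8.21), 13 (39.4%) had an IDR score of 1000, beside 45.1% of all regions, and 23 (69.7%) had several summits, beside 70.1%. These values lay near those of the whole list.

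Among 15 relatives of the 8 genes, from the same families and the DACH family, 3 were open at the 5′ end, namely Six5, Eya3 and Dach1, with folds from 5.56 to 10.5, beside 38.3% of all coding genes. Eya3, the EYA gene with the highest fold at its 5′ end (10.5), had its region 28 bp upstream and no other. Dach1, which encodes a corepressor of the same network, had 7 regions, 6 of them over 1 kb away, and its region at the 5′ end had a fold of 5.56. Eya2 had 5 regions inside the gene and Eya4 had 4, without any at the 5′ end. Dlx2 had 6 nearest regions, the closest at 3.70 kb, and its partner Dlx1 had a region at its listed start but not at the outermost 5′ end. Pitx3, Six3, Dach2, Dlx4 and Barx1 had 0 nearest regions, so that 10 of the 15 had at least 1, beside 58.0% of all coding genes.

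**Figure D4:**
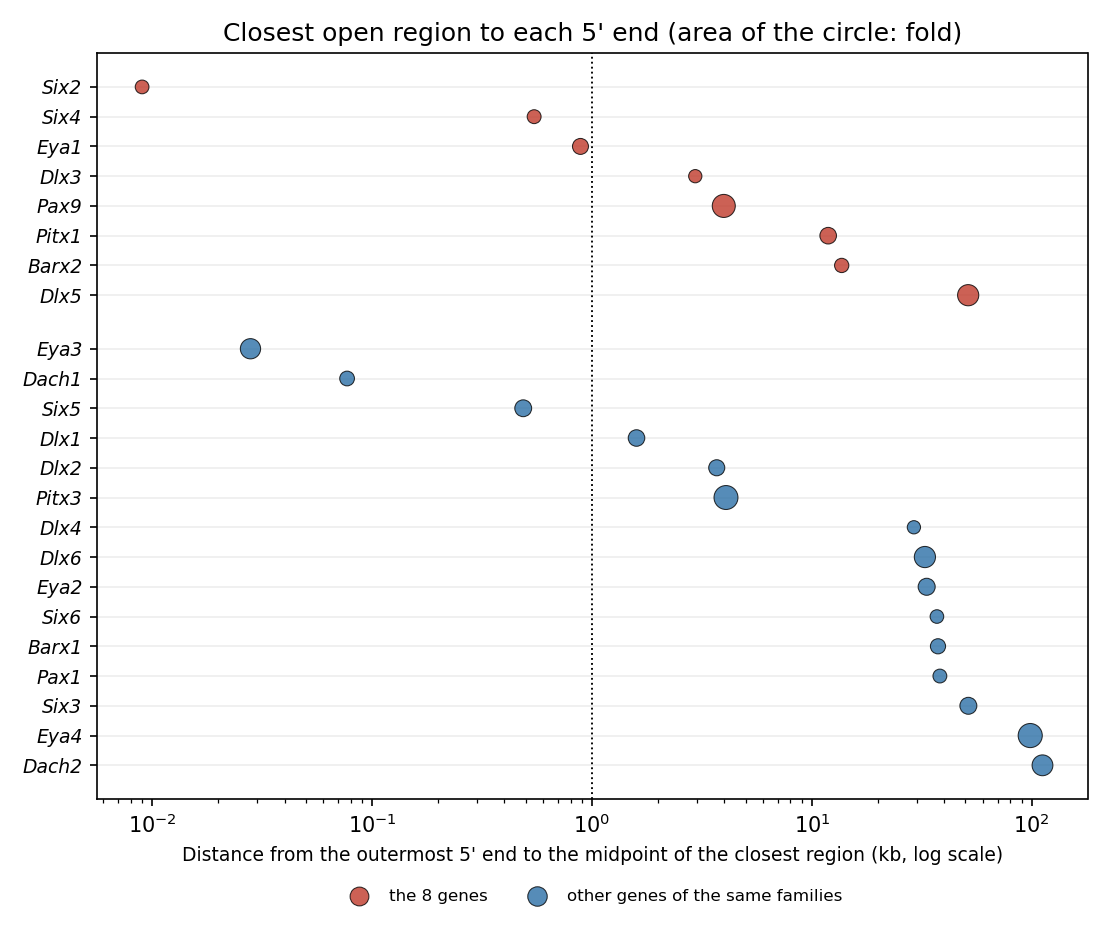
Distance from the outermost 5′ end to the midpoint of the closest region (x axis, kb, log scale) for the 8 genes (red) and 15 other genes of their families (blue), with circle area following the fold of that region; the dotted line marks 1 kb. Of the 8 genes, 3 lie to the left of the line, and Dlx5, at 51.4 kb, lies farthest to the right.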

How the data were processed

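Bulk ATAC-seq was performed on 4 organoid samples with 75 bp paired-end reads. For alignment and peaks, the authors relied on the ATAC-seq pipeline of ENCODE, whose version is not given in the sources used here, and the submitters' processing notes also name HOMER and GRCm39. The deposited list gives, for each summit, an IDR score, a fold (ratio) over local background and a −log10 q-value, as the peak caller of the authors made them. The list was taken to combine all samples, although its 32011 regions are fewer than in the consensus set that the study describes.

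Its 69545 lines hold 1 summit each, and lines with identical limits were merged into 1 region with the values of the summit of lowest q-value. Genes came from a RefSeq table of GRCm38.p6. Strand was read from the RefSeq promoter table of that build (17492 coding genes) or, by name, from GENCODE release M39. The sources differed for 101 of 15718 coding genes with both, and the promoter table was used. Regions were placed by their midpoints. Genes with a similar stretch nearest to their 5′ end were taken from 50 bins by length, and percentiles count ties by their midrank. The functions were tested on simulated regions. Members, gene lists and motifs were chosen with earlier results of these data known. Named genes were the 8 members, their listed relatives that share a locus or have a region at the 5′ end, and others chosen after their values were seen. Some genes of these lists are not reported here. Settings tried were distance, midpoint or any base, strand, gene types and stricter sets of regions. Python 3.11.15 was used, together with pandas 2.3.3, numpy 2.4.6 and matplotlib 3.10.9.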

Additional observations from a re-analysis of the deposited data

How the results depend on the processing

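No paired analysis was possible because 1 list stands for all 4 samples, and for the same reason leaving out samples could not be done. The number of the 8 genes with a region at the 5′ end, 3, fell to 1 within 500 bp, to 0 in the stricter set by q-value and to 0 among regions with an IDR score of 1000, and was between 3 and 4 under the 6 other settings, of which any listed start and strand by gene name were chosen after seeing the data. Regions inside the genes numbered 5, against 2 in the stricter set, 1 at an IDR score of 1000 and 9 by every line. Regions nearest to a 5′ end of the 8 genes numbered 33, against 9 when genes of every type could be nearest, 17 within 100 kb, 17 in the stricter set, 13 at an IDR score of 1000 and 69 by every line. The distinct regions of the 8 genes numbered 33, against 17, 13 and 69 in the last 3 of these settings. Stricter sets are smaller, and counts of lines larger, by construction. Of the 15 relatives, 2 to 4 were open at the 5′ end under every setting tried. Since depth is unknown, an absent region may lie under what the sequencing could detect.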

Other observations

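Of 21 other developmental factors of the oral and pharyngeal region, 3 had a region at the 5′ end, namely Isl1, Bcl11b and Tfap2a, beside 38.3% of all coding genes. Isl1, a LIM homeodomain factor, had a fold of 6.87 at the 5′ end and 9 nearest regions, Bcl11b, a zinc-finger factor of skin and teeth, had 5.62 and 8 nearest regions, 6 of all its regions being inside the gene, and Tfap2a, the AP-2 factor of ectoderm and neural crest, had 5.31 and 10 nearest regions. The 18 without a region at the 5′ end included factors of craniofacial mesenchyme and of epithelium alike. Among them, the closest region lay 373.0 kb from Msx1, 242.0 kb from Lhx8, 121.4 kb from Alx4 and 42.1 kb from Hand2, and 35.7 kb from Sp6, a factor of dental epithelium, and 26.9 kb from Foxe1, a forkhead factor of thyroid and palate. Prrx1, another mesenchymal factor, had 3 nearest regions and 2 inside the gene, with none at the 5′ end. These values describe 1 list, and whether the groups of genes differ was not tested.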
